A study of Arabidopsis thaliana with 6 samples.

Results

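The genes that carry the ethylene signal from its receptors to the nucleus in Arabidopsis thaliana are described here by their transcripts in the aerial parts of hrlp-2 and wild-type seedlings. They were chosen by name from the deposited tables: ETR1, ETR2, ERS1, ERS2, EIN4, CTR1, EIN2, EIN3, EBF1 and EBF2, case ignored. All 10 names had exactly 1 row among the 22759 named rows, and the rule for choosing them used no measured value, though they were chosen with earlier results of these data known. RNA-seq libraries were made from total RNA, 3 from the Columbia wild type (WT) and 3 from hrlp-2, a single mutant line labelled as a knockout of HRLP (AT2G44710, an hnRNP R-like RNA-binding protein gene); the kind of mutation is not stated in the labels. Both groups were 9-day-old seedlings grown at 23 ± 2 °C in long days (16 h of light, 8 h of dark), with no further treatment, and the labels call the libraries biological replicates.

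Ethylene is a gaseous plant hormone that is bound by receptors in the endoplasmic reticulum membrane. Without ethylene the receptors keep the kinase CTR1 active, and CTR1 phosphorylates EIN2 and so holds the pathway off. When ethylene binds, EIN2 is cleaved, its end reaches the nucleus, and the transcription factors EIN3 and EIL1 accumulate and switch on response genes. EBF1 and EBF2 are F-box proteins that mark EIN3 and EIL1 for degradation, and EBF2, ETR2, ERS1 and ERS2 are known from earlier work as ethylene-induced genes, which makes them part of a negative feedback. In seedlings the pathway restrains growth and shapes the apical hook, and it works with jasmonate in defence.

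The stretches upstream of 4 members are shown because ERS1, EIN2 and EBF2 were among the members called higher in hrlp-2, and EBF1 is the close relative of EBF2 that was not called. Each stretch ends at the base before the gene's annotated start and is read 5′ to 3′ on the gene's own strand, from the RefSeq annotation of TAIR10.1. ERS1 lies at chr2:17087327-17087564 on the minus strand (shortened to 238 bases, since the bases beyond fall in an exon of the neighbouring gene AT2G40950), EIN2 at chr5:787178-787427 on the plus strand, EBF1 at chr2:10850798-10851047 on the minus strand and EBF2 at chr5:8797350-8797599 on the minus strand. Capitals mark matches to ATGTA, the core letters of the EIN3 binding site, and to ATGNANCT, a longer form of it, on either strand.
ERS1: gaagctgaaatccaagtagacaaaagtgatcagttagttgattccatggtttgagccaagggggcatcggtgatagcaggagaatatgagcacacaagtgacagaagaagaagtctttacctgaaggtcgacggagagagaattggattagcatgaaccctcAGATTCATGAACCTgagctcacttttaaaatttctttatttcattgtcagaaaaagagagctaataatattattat
EIN2: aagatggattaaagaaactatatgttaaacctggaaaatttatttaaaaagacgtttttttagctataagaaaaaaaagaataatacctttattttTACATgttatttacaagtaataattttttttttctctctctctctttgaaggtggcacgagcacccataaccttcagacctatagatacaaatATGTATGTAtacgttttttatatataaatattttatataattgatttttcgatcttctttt
EBF1: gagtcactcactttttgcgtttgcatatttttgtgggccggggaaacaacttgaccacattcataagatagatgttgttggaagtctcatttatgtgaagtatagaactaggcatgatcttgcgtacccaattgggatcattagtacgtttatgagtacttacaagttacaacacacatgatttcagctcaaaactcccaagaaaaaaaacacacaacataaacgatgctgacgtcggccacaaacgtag
EBF2: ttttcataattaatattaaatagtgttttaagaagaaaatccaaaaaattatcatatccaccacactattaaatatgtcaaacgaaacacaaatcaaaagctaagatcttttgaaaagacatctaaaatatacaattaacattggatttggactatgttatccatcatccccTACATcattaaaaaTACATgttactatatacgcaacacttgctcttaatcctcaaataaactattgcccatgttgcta
EBF2 held 2 matches to ATGTA, both on the opposite strand, starting 78 and 64 bases before its start. EIN2 held 3, and EBF1 held none in the 250 bases shown. Such matches are common: 52% of the 27443 upstream windows of 250 bases of nuclear protein-coding genes held at least 1 and 20.2% held at least 2. ERS1 held no ATGTA in 250 bases, but held ATGNANCT once on each strand. These matches started 76 and 70 bases before its start and overlapped each other in the run AGATTCATGAACCT. At least 1 match to ATGNANCT occurred in 12.5% of the windows, and overlapping matches of both strands in 0.0802% (22 windows), a count that was made after the ERS1 sequence had been seen. None of the 4 genes shown held GCCGCC, the core of the GCC box bound by ethylene response factors, in 250 or in 1000 bases, against 1.87% and 8.44% of all windows. In 1000 bases all 4 genes held ATGTA, with 3 to 10 matches each, and 93.7% of windows held at least 1. In that window 2 of the 4 held ATGNANCT, against 48.2% of windows. A match describes letters, and binding was not measured.

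Of the 10 members, 4 rose in hrlp-2 (ERS1, EIN2, EIN3 and EBF2), 0 fell and 6 did not pass the test. Across all 18643 rows tested, 11.0% were called higher and 9.31% lower, 20.4% in all (limma on log2(CPM + 0.5), adjusted p threshold 0.05). With upper-quartile scaling 1862 rows were higher and 1885 lower, and with the deposited CPM not rescaled 1639 and 2035, against 2059 and 1735 here, so the balance of all calls turned with the scaling. Under each of these 2 scalings 3 members (ERS1, EIN3 and EBF2) were called higher and 0 lower. CPM are read counts scaled to 1000000 per library. All 10 members passed the filter on low values, set at 0.5 CPM or more in 3 or more libraries. The median log2 fold change was 0.10 over the members and 0.00 over all rows tested. Every hrlp-2 library lay above every WT library for 4 of the 10 members, the same genes, and for 14.7% of all rows tested. The reverse order held for 0 of the 10 members and 18.7% of rows. The 4 rises were small, log2 fold changes of 0.12 to 0.26, and in whole aerial tissue a different number of cells of a type and a different amount of RNA per cell cannot be told apart.

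The HRLP row fell from 31.1 ± 1.65 CPM in WT to 16.6 ± 0.601 CPM in the mutant (SD, n = 3 each, limma adjusted p = 3.99e-12), so its reads were reduced but present in every hrlp-2 library. The spacing of low values put the depth at 19.95 to 25.18 reads per CPM, with hrlp-2 replicate 2 the shallowest. Leaf markers (RCA, LHCB1.3 and GLDP1) were abundant, as the label of aerial tissue calls for. Among 6 root markers with a row, CASP2 and CASP4 were at 0 in all libraries and COBL9 at 0.03 CPM in WT. CASP1 was present in every library, at 0.25 to 0.75 CPM, but did not pass the filter. The sum of the 6 was 232.9 to 234.9 CPM in wild type and 262.2 to 276.9 CPM in the mutant, nearly all from PYK10 (BGLU23). PYK10 rose by a log2 fold change of 0.22 (limma adjusted p = 1.22e-07), close to the size of the ERS1 and EBF2 changes, while the root nitrate transporter gene NRT2.1 went from 1.73 to 1.38 CPM and did not pass. The leaf marker GLDP1 rose by 0.09 on the log2 scale (limma adjusted p = 0.00114). RCA and LHCB1.3 did not pass (log2 fold changes 0.03 and 0.02, adjusted p = 0.186 and 0.279). The part of root-marker and leaf-marker RNA in the results was not tested.

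**Figure D1:**
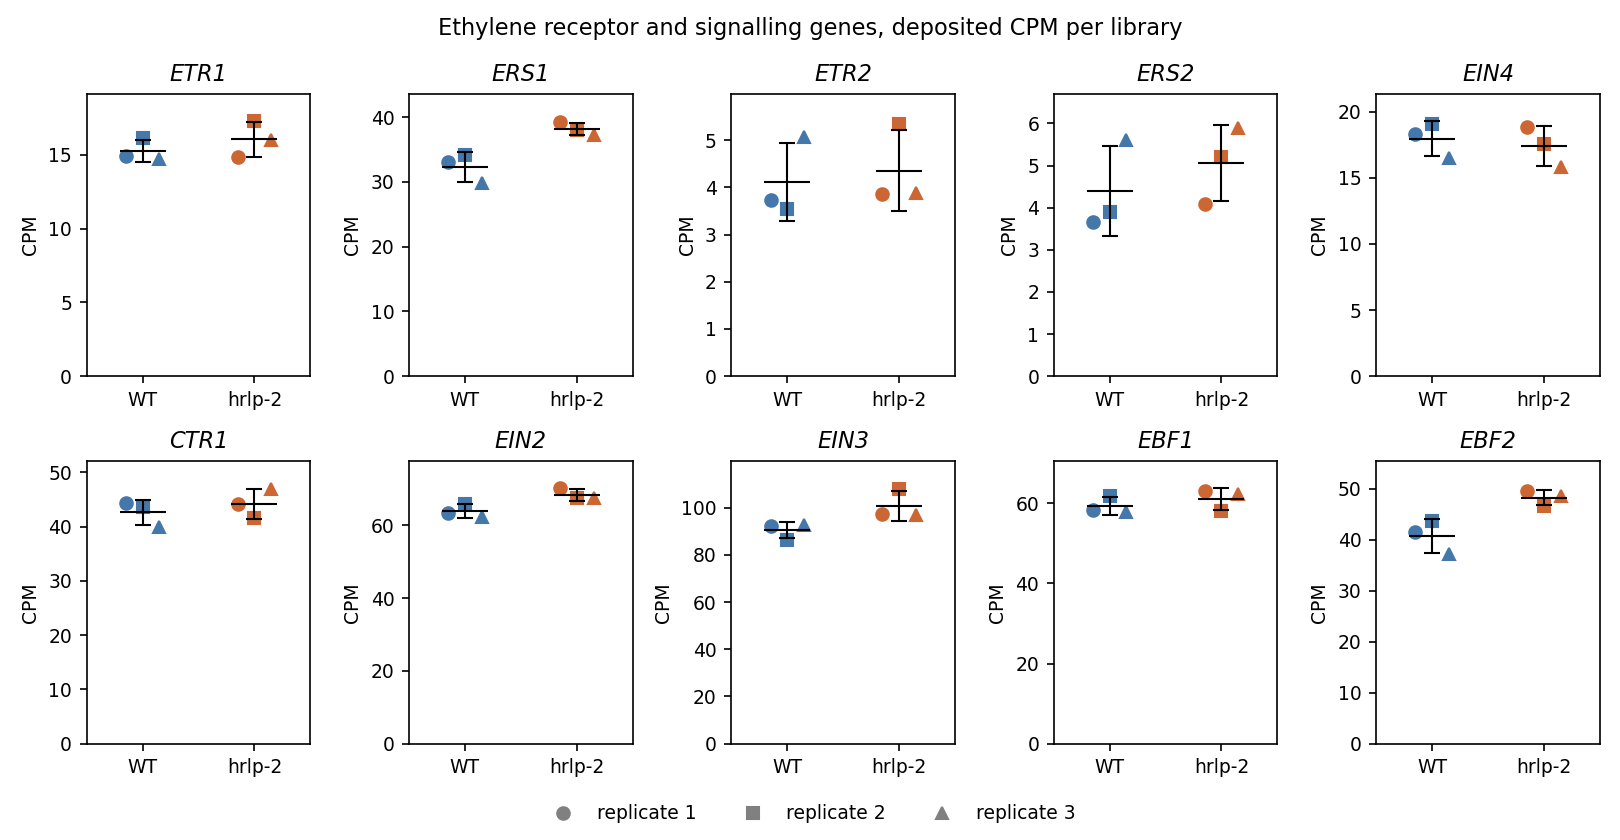
Deposited CPM of the 10 members in each library; symbols give the replicate number, and bars the mean and SD of 3 libraries per group. The hrlp-2 libraries of ERS1, EIN2, EIN3 and EBF2 all lie above the WT libraries, and the groups overlap for the other members.

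The receptors come in 2 subfamilies. Subfamily I holds ETR1 and ERS1, which keep a canonical histidine kinase domain, and subfamily II holds ETR2, ERS2 and EIN4, whose kinase domain is degenerate. ERS1 and ERS2 lack the receiver domain that the other receptors carry at their end.

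ERS1 was the receptor that rose. It lies on chromosome 2 at 17084321 to 17087326, minus strand. It measured 33.13, 34.10 and 29.78 CPM in WT replicates 1 to 3, and 39.23, 38.11 and 37.29 CPM in hrlp-2 replicates 1 to 3. The lowest hrlp-2 library was above the highest WT library. The means were 32.3 ± 2.27 and 38.2 ± 0.974 CPM (SD, n = 3 each), a log2 fold change of 0.26 on the log2(CPM + 0.5) scale (SE 0.055, limma adjusted p = 0.000686), with a 95% interval from a 1.11-fold to a 1.29-fold rise. WT replicate 3 was the lowest library, and without it the log2 fold change was 0.21 with adjusted p = 0.0122.

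ETR1, the first ethylene receptor to be described, lies on chromosome 1 at 24734162 to 24737756, plus strand. WT measured 14.93, 16.14 and 14.71 CPM, and hrlp-2 14.89, 17.28 and 16.02 CPM. The groups overlapped almost fully, the log2 fold change was 0.09 (95% interval -0.07 to 0.25), and it did not pass (adjusted p = 0.478). EIN4, of subfamily II, lies on chromosome 3 at 1235209 to 1238630, minus strand. The WT libraries gave 18.33, 19.03 and 16.52 CPM, and the hrlp-2 libraries 18.82, 17.53 and 15.84 CPM. It was the only member with a negative log2 fold change, -0.03 (interval -0.18 to 0.13, adjusted p = 0.863), and the sign turned when WT replicate 2 or hrlp-2 replicate 3 was left out.

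ETR2 and ERS2, 2 of the receptor genes known to respond to ethylene, were weak and variable here. ETR2 (chromosome 3, 8254559 to 8257888, plus strand) measured 3.74, 3.55 and 5.07 CPM in WT, against 3.85, 5.34 and 3.87 in the mutant. One library in each group was high, WT replicate 3 and hrlp-2 replicate 2. The log2 fold change was 0.09, with an interval from -0.23 to 0.40 (adjusted p = 0.749). ERS2 (chromosome 1, 1154740 to 1157813, minus strand) measured 3.66, 3.90 and 5.61 CPM in WT, against 4.09, 5.20 and 5.89 in the mutant. WT replicate 3 lay above all hrlp-2 libraries but replicate 3. The log2 fold change was 0.21, with an interval from -0.10 to 0.52 (adjusted p = 0.373). Each of these rows rested on about 80 to 128 reads per library. A change of the size seen in ERS1 lay inside both intervals, so such a change was neither shown nor excluded.

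**Figure D2:**
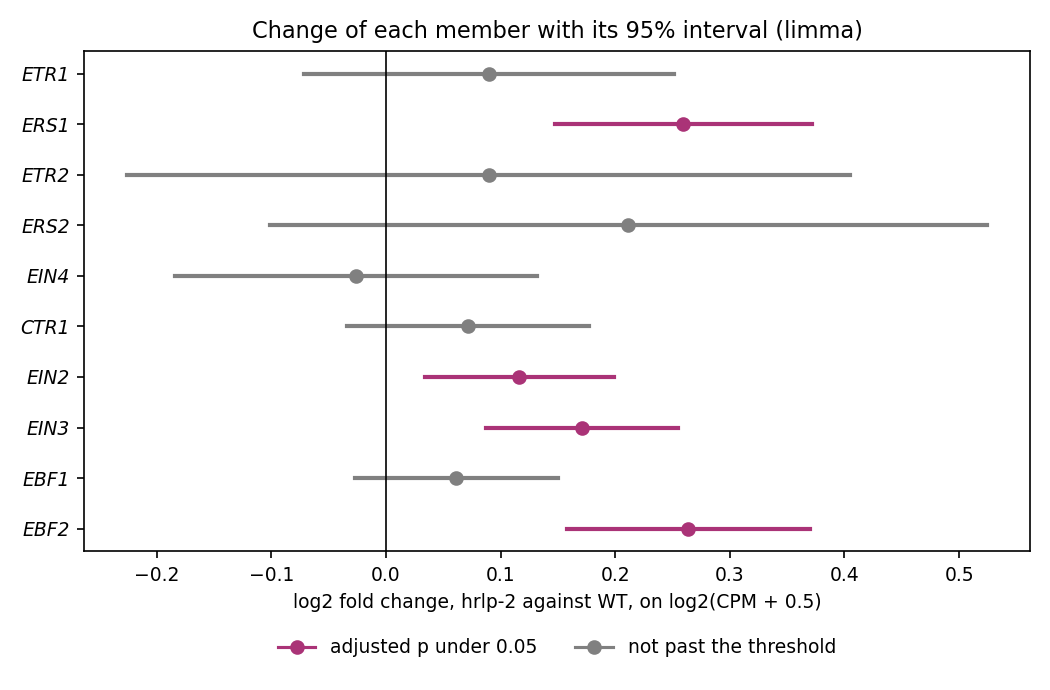
Log2 fold change of each member in hrlp-2 against WT with its 95% interval from limma. The intervals of ERS1 (0.15 to 0.37) and EBF2 (0.16 to 0.37) lie farthest from 0, and those of ETR2 and ERS2 are the widest.

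Downstream of the receptors, EIN2 and EIN3 rose and CTR1 did not pass. CTR1, the kinase that holds the pathway off, lies on chromosome 5 at 974360 to 979849, minus strand. WT gave 44.32, 43.64 and 40.01 CPM, and hrlp-2 gave 44.19, 41.51 and 47.01 CPM. The groups overlapped, and the log2 fold change was 0.07 (interval -0.03 to 0.18, adjusted p = 0.373).

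EIN2, the membrane protein that passes the signal to the nucleus, lies on chromosome 5 at 787428 to 793404, plus strand. Its levels were 63.33, 65.95 and 62.33 CPM in WT, against 70.16, 67.39 and 67.36 in hrlp-2. The groups did not overlap, but the gap between them was narrow. The means were 63.9 ± 1.87 and 68.3 ± 1.61 CPM, a ratio of 1.07 as deposited. After scaling, the limma rise was 1.08-fold (log2 fold change 0.12, SE 0.0404, limma adjusted p = 0.0381). This call ended with upper-quartile scaling (adjusted p = 0.0613), with the deposited CPM not rescaled (0.101), and whenever any single library other than WT replicate 2 was dropped (highest adjusted p = 0.151).

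EIN3, the transcription factor that drives the response, lies on chromosome 3 at 7260429 to 7263384, minus strand. WT gave 92.33, 86.52 and 92.88 CPM, and hrlp-2 gave 97.32, 107.85 and 96.96 CPM. All hrlp-2 libraries were above WT, and hrlp-2 replicate 2 stood highest. The means were 90.6 ± 3.52 and 100.7 ± 6.19 CPM, a ratio of 1.11 as deposited. After scaling, the limma rise was 1.13-fold (log2 fold change 0.17, SE 0.0412, limma adjusted p = 0.0026). Without hrlp-2 replicate 2 the log2 fold change was 0.12 and the call ended (adjusted p = 0.0528), which left ERS1 and EBF2, 2 of 10 members, as called.

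Its close relative EIL1, which shares much of its role, measured 104.67, 108.25 and 110.67 CPM in WT, against 105.34, 106.55 and 104.55 in hrlp-2. It did not pass (log2 fold change -0.01, interval -0.08 to 0.06, adjusted p = 0.862). The EIL1 to EIN3 log2 ratio was 0.25 ± 0.07 in WT and 0.07 ± 0.07 in hrlp-2 (SD, n = 3 each), lower in every hrlp-2 library than in every WT library. The exact permutation test gave p = 0.1, the smallest that 3 against 3 libraries allow (two-sided; 0.2 after adjustment over the 4 ratios tested). The longest identical stretch between the EIN3 and EIL1 transcripts was 68 bases, so some reads could belong to either, and how the authors' counting treated these is not given in the sources used here.

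Of the 2 F-box genes, EBF2 rose and EBF1 did not pass. EBF2 lies on chromosome 5 at 8794252 to 8797349, minus strand, and measured 41.59, 43.59 and 37.12 CPM in WT against 49.55, 46.61 and 48.66 CPM in hrlp-2. The groups were clearly apart, with WT replicate 3 lowest. The means were 40.8 ± 3.31 and 48.3 ± 1.51 CPM, a log2 fold change of 0.26 (SE 0.052, 95% interval from 1.12-fold to 1.29-fold, limma adjusted p = 0.000296), the largest among the 10 members in this fit. Leaving out single libraries gave log2 fold changes from 0.20 (without WT replicate 3) to 0.31 (without WT replicate 2), with adjusted p up to 0.00691.

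EBF1, on chromosome 2 at 10847375 to 10850797, minus strand, measured 58.39, 61.82 and 57.76 CPM in WT, against 63.02, 57.99 and 62.24 in hrlp-2. The groups overlapped and it did not pass (log2 fold change 0.06, interval -0.03 to 0.15, adjusted p = 0.358). The EBF2 to EBF1 log2 ratio was -0.54 ± 0.08 in WT and -0.34 ± 0.02 in hrlp-2, higher in all 3 hrlp-2 libraries (exact permutation p = 0.1, the smallest possible; 0.2 adjusted over the 4 ratios). The longest identical stretch between the EBF1 and EBF2 transcripts was 23 bases. The ERS1 to ETR1 ratio, chosen after the values were seen, was 1.06 ± 0.07 in WT and 1.23 ± 0.13 in hrlp-2 on the log2 scale, with overlapping groups (exact permutation p = 0.2, 0.267 adjusted). The ETR2 to ETR1 ratio was -1.78 ± 0.30 and -1.78 ± 0.16 (exact permutation p = 1). With 3 libraries a group none of these tests could reach 0.05, so whether relatives changed by different amounts is not settled by them.

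**Figure D3:**
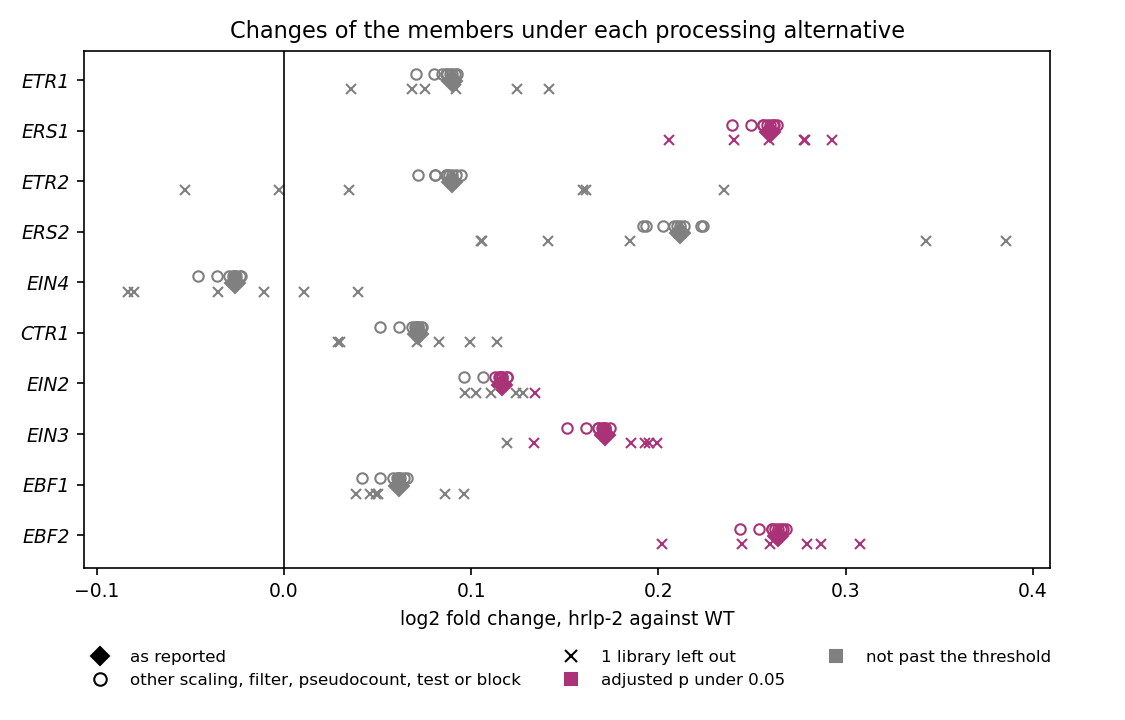
Log2 fold change of each member under each processing alternative; diamonds are the values reported, open circles other scalings, filters, pseudocounts, tests or the replicate block, and crosses fits without 1 library. ERS1 and EBF2 stay past the threshold in each of these fits, EIN3 in all but 1, and EIN2 loses it in 7.

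Levels between genes were compared as CPM per kilobase of the longest annotated transcript. EIN3 stood highest at 37 ± 1.44 CPM per kilobase in WT, above EBF1 at 19.4 ± 0.716. EBF2 (13.9 ± 1.13), ERS1 (13.3 ± 0.934), EIN2 (13.2 ± 0.385) and CTR1 (13.1 ± 0.712) followed, and these 4 levels lay within each other's spread in WT. ETR1 (5.50 ± 0.278) and EIN4 (5.41 ± 0.390) overlapped as well. ERS2 (1.71 ± 0.413) and ETR2 (1.31 ± 0.263) were lowest and also overlapped. The order of the means was the same in hrlp-2, where EBF2 (16.5 ± 0.515 CPM per kilobase, 15.91 to 16.92) and ERS1 (15.7 ± 0.401, 15.36 to 16.16) lay above every library of EIN2 (13.89 to 14.46) and CTR1 (12.76 to 14.45).

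ERS1 thus made up 48.9 ± 1.99% of the summed receptor level per kilobase in WT and 52.3 ± 1.54% in hrlp-2, in both groups about as much as the other receptors together. ETR1 held 20.2 ± 0.396% and 19.2 ± 1.18%, and EIN4 19.9 ± 0.819% and 17.4 ± 1.37%. ERS2 and ETR2 held 6.30 ± 1.72% and 4.82 ± 1.13% in WT. The summed level of the 5 receptors was 27.16, 28.24 and 26.33 CPM per kilobase in WT and 30.01, 30.92 and 29.42 in hrlp-2, with no overlap between the groups. No separate test was made of this sum, to which ERS1 contributes most.

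**Figure D4:**
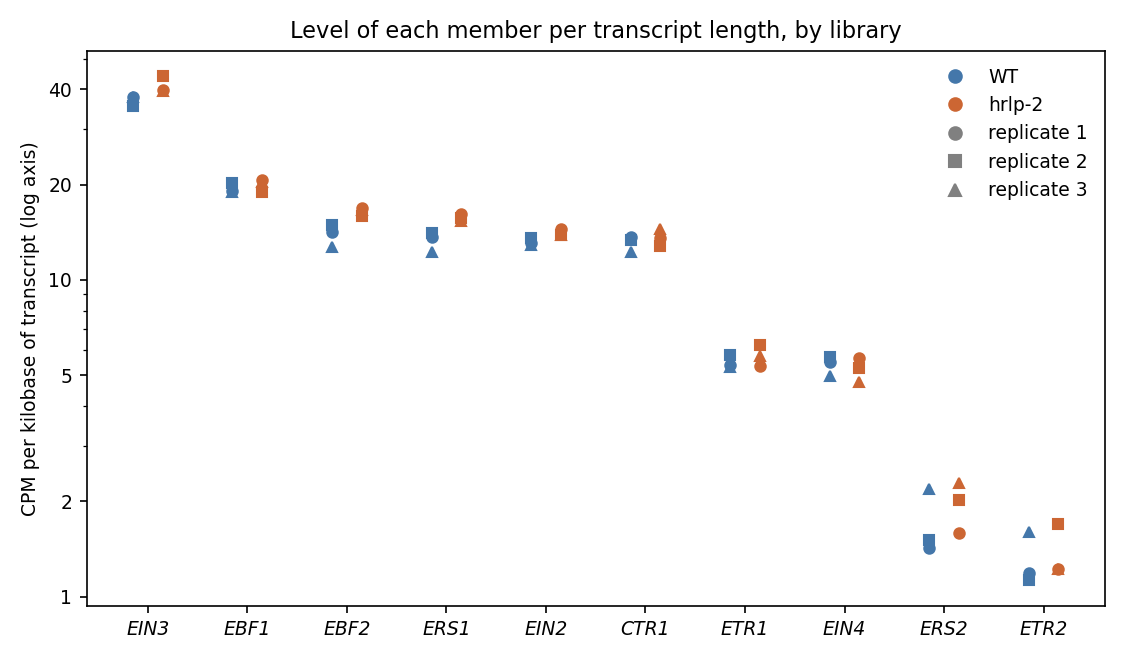
CPM per kilobase of transcript of the 10 members on a log axis, 1 point per library, ordered by the WT mean. The genes fall into steps, from EIN3 near 37 in WT down to ERS2 and ETR2 under 2.5 in every library.

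Around these members, 52 other genes of the pathway were listed by role. Of these, 41 could be matched to a row, 6 had a row name that 2 loci share and were left out, and 5 had no row by these names. Of the 37 that passed the filter, 13 rose and 3 fell, against 11.0% and 9.31% of all rows. The median log2 fold change of the 37 was 0.12. The called genes include ACS11 and PDF1.2B, each past the filter only through the group where it was higher. These lists were chosen with earlier results of these data known, so the shares called are not independent support. Among 4 tested partners of the receptors, 1 rose and 0 fell. It was ARL, a relative of the ethylene-induced growth regulator ARGOS, which went from 1.38 ± 0.0819 to 2.31 ± 0.310 CPM (limma adjusted p = 0.0219). Dropping WT replicate 2, hrlp-2 replicate 1 or hrlp-2 replicate 3 ended that call (highest adjusted p = 0.103).

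Among 10 tested genes listed around EIN2, EIN3 and the F-box proteins, 3 rose and 0 fell, against 11.0% and 9.31% of all rows. They include EIL1, its relative EIL3, which acts in the sulfur response, and the exoribonuclease gene XRN4, none of them called. The median log2 fold change of these 10 was -0.02. ETP1, an F-box gene whose protein targets EIN2, went from 24.6 ± 0.706 to 27.8 ± 1.25 CPM (limma adjusted p = 0.0204), and no longer passed once either replicate 2 was dropped (highest adjusted p = 0.115). SKP1A and SKP1B, adaptor subunits of the SCF ubiquitin ligases that hold EBF1 and EBF2 among many other F-box proteins, went from 124.9 ± 3.19 to 139.6 ± 4.90 CPM and from 59.0 ± 1.86 to 65.4 ± 2.31 CPM (adjusted p = 0.000141 and 0.00466).

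Of 12 response genes tested, 6 rose, 3 fell and 3 did not pass, against 11.0% higher and 9.31% lower of all rows. Their median log2 fold change was 0.43. Those that did not pass were ERF2, HLS1 and CHI-B (log2 fold changes 0.28, -0.22 and -0.39, limma adjusted p = 0.144, 0.432 and 0.318). RAV1 rose 1.99-fold, from 25.31, 23.28 and 26.98 CPM to 50.19, 51.85 and 47.37 CPM (limma adjusted p = 1.08e-14). RAV2, also called TEM2, rose 2.20-fold, from 6.45 ± 0.507 to 14.5 ± 0.253 CPM (adjusted p = 1.19e-10), and TEM1 rose 1.49-fold, from 22.9 ± 0.992 to 33.8 ± 1.56 CPM (adjusted p = 7.80e-09). These 3 genes are ethylene response DNA-binding factors of the RAV family, and TEM1 and TEM2 are known repressors of the flowering signal FT. ERF104, ERF5 and ERF6, stress-responsive ERF genes, were the other 3 rises (1.95-fold, 1.59-fold and 1.51-fold), and the ERF6 call ended without WT replicate 2 (adjusted p = 0.0756).

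The falls were the defensin genes PDF1.2A (11.6 ± 1.03 to 0.967 ± 0.335 CPM) and PDF1.2B (3.20 ± 0.590 to 0.490 ± 0.288 CPM), close copies between which reads may have been divided in either way, and HEL. PDF1.2B passed the filter only through the WT libraries. HEL, also called PR4, encodes a hevein-like protein and went from 47.08, 47.72 and 46.53 CPM to 32.16, 35.32 and 38.76 CPM (1.31-fold lower, limma adjusted p = 2.04e-06). All 3 genes are known to be induced by jasmonate and ethylene acting jointly. ERF1B, the direct EIN3 target that drives such markers, was under the filter, at 0 to 0.22 CPM in every library.

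The ethylene synthesis list gave 3 rises and 0 falls among 11 tested, against 11.0% and 9.31% of all rows. The median log2 fold change of the 11 was 0.12. Not all of them make ethylene: the list also holds ETO1, whose protein targets ACC synthases, and its relatives EOL1 and EOL2. None of these was called, and the median was the value of EOL2. ACS6, an ACC synthase gene, rose from 11.0 ± 0.656 to 43.9 ± 1.19 CPM (3.92-fold, limma adjusted p = 7.09e-21). ACS11 went from 0.163 ± 0.106 to 1.01 ± 0.261 CPM (adjusted p = 0.000964), but it passed the filter only through the hrlp-2 libraries, and rested on 1 to 24 reads per library. ACO4, an ACC oxidase gene that makes ethylene from ACC, went from 438.9 ± 5.06 to 456.1 ± 6.40 CPM (1.05-fold after scaling, adjusted p = 0.0155). Its call ended with the deposited CPM not rescaled (adjusted p = 0.0939) and when WT replicate 3 or the mutant's replicate 1 or 2 was dropped (highest adjusted p = 0.0720).

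Of 8 touch and fast stress genes tested, 6 rose and 0 fell, against 11.0% and 9.31% of all rows. Their median log2 fold change was 0.70. This list was chosen with earlier results of these data known, so its share of calls is not independent support. WRKY40 and ZAT10 did not pass (limma adjusted p = 0.829 and 0.248). The summed level of all 8 genes was 99.7 to 104.8 CPM in WT, against 222.5 to 226 in the mutant, and the groups did not overlap. XTH22 rose 4.48-fold, the deadenylase gene CAF1-9 3.10-fold and the calmodulin-like gene CML24 2.06-fold. ZAT12, a stress zinc finger gene, was called at 1.64-fold (limma adjusted p = 0.0253), and lost that call when replicate 1 or 2 of either group was dropped (highest adjusted p = 0.128). The part of these touch and stress genes in the rises of ERS1, EIN3, EBF2 and the response genes was not tested.

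**Figure D5:**
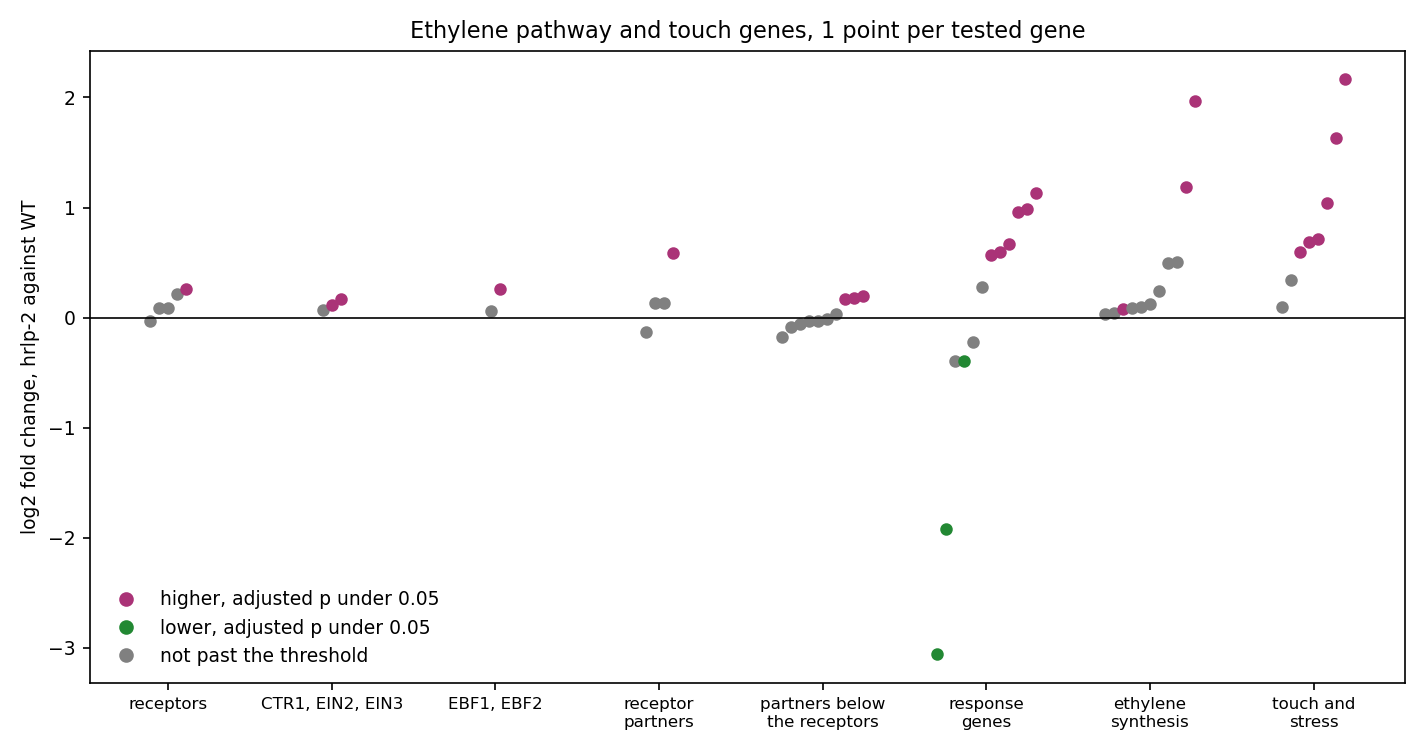
Log2 fold change in hrlp-2 against WT of each tested gene of the ethylene pathway and of the touch and stress list, grouped by role. The 10 members lie between -0.03 and 0.26, while response genes run from -3.06 to 1.14 and the synthesis list from 0.03 to 1.97.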

How the data were processed

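Each library came as a table of CPM, as deposited by the authors. STAR 2.7.3a and the build TAIR10 are named in the submitters' processing notes, while no source used here names the read counter, annotation or strand setting. Libraries were made with a directional kit, per the labels' protocols. The unit was read from the values: columns sum to about 1000000, and 88.0% to 89.5% of values under 2 CPM lay within 0.0051 CPM of whole multiples of 1 step per library (20.4% to 25.7% by chance). The rest did not, so whole reads were not recovered, no count model was used, and read numbers are estimates that cover counting error only. The 1 row without a name was left out.

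limma 3.58.1 in R 4.3.3 tested log2(CPM + 0.5) of 18643 rows after trimmed-mean-of-M scaling (30% of M and 5% of A values trimmed), with an intensity trend, two-sided, Benjamini-Hochberg adjusted over all rows. Fold changes on this scale understate changes of weak genes. They are values after scaling, while CPM means and SDs are of the deposited values, so the ratio of printed means can differ slightly from the fold change. P-values rest on the spread between the 3 libraries of each group, drawn by limma towards a trend of spread over all rows. They therefore depend on the rows tested: without the filter on low values the limma adjusted p of ACS6 was 2.29e-10, against 7.09e-21. For the called members it was 0.00438 (ERS1), 0.0391 (EIN2), 0.0182 (EIN3) and 0.0039 (EBF2) without that filter. With the filter it was 0.000686, 0.0381, 0.0026 and 0.000296. Libraries of a group differed by more than counting noise (median chi-square per gene 0.795 to 0.919 against 0.455), so none were merged. Functions were tested on simulated data. Symbols were matched to rows by RefSeq names (TAIR10.1) where 1 locus alone bears the name (CAF1-9 by its row name). Promoters and transcript lengths came from the same annotation, and 1 upstream stretch is not reported here.

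The members and lists were chosen with earlier results of these data known. Named were all members, EIL1, HRLP and, of each list, up to 4 called genes by size of change. TEM1, ERF104, ERF5, ERF6, HEL, ERF1B, CASP2, CASP4, COBL9, NRT2.1, WRKY40, ZAT10, RCA and LHCB1.3 were named after their values were seen. So were CASP1, ERF2, HLS1, CHI-B, ETO1, EOL1, EOL2, EIL3 and XRN4. Alternatives were other scalings, filters and pseudocounts, limma-voom on estimated reads, the replicate number as a block, and leaving out each library.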

Additional observations from a re-analysis of the deposited data

How the results depend on the processing

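ERS1 and EBF2 kept their direction and passed in all 15 alternatives, and EIN3 in 14. The count of members called higher lay between 2 (without hrlp-2 replicate 2) and 4 in the fits on 5 libraries, and 0 fell in any. In these fits 3 uncalled log2 fold changes near 0 turned sign: ETR2, between -0.0528 and 0.2348 (negative without replicate 2 of either group), EIN4, between -0.0831 and 0.0395 (positive without WT replicate 2 or hrlp-2 replicate 3), and EIL1, between -0.0331 and 0.0104 (positive without WT replicate 3). The difference in the ETR2 to ETR1 log2 ratio was 0.0013, turned to -0.0036 with a pseudocount of 1 and spanned -0.13 to 0.17 over the fits on 5 libraries. The cause was not tested. With the replicate number as a block, 2057 rows were higher and 1727 lower, against 2059 and 1735 without it, and it changed no call of a member (EIN2 adjusted p = 0.0438). Same-numbered libraries did not deviate together (correlations -0.026 to -0.008), so the numbers are not taken to pair the samples. Fits on 5 libraries gave 1617 to 1861 rows higher and 1352 to 1477 lower. Depth and spread limit ETR2 and ERS2 most, whose intervals span changes as large as those of the called members.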
